A study of Mus musculus with 16 samples.

Results

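The subunits of the oxidative phosphorylation system were followed in bone endothelial cells (ECs) of mice at 3 weeks of age, in 3 comparisons: between 2 parts of the bone, and between mutants and controls for the Hippo pathway genes Yap1 and Taz and for Lats2. Genes were taken by symbol: names starting with Nduf and then a, b, c, s or v, the genes Sdha to Sdhd, names starting with Uqcr, Cox4 to Cox8 or Atp5, and the mitochondrial genes mt-Nd, mt-Co, mt-Atp and mt-Cytb. The pattern took 107 of 38926 listed genes in the bone compartment and Lats2 tables and 106 of 21603 in the Yap1/Taz files, which made 109 different symbols. No measured value other than a mean of at least 1 FPKM (fragments scaled for transcript length and for the fragments mapped in the library) in the comparison was used, and 101, 101 and 97 genes passed in the bone compartment, Yap1/Taz and Lats2 comparisons, with 95 passing in all 3. In the bone compartment table the 107 genes were 80 nuclear-encoded subunits, 13 mitochondrially encoded subunits, 7 assembly factors of complex I and 7 paralogs, pseudogenes or genes with another role. The 6 that did not pass there were Cox4i2, Cox7b2, Cox8b, Cox8c, Atp5l-ps1 and mt-Nd4l, and Cox6a2, Cox6b2, Cox7a1 and Ndufa4l2 were also under the limit in the Lats2 table. In the Yap1/Taz files Cox7b2, Cox8b, Cox8c, Ndufa4l2 and mt-Nd4l were under it. Atp5mpl and Ndufaf8 were listed by these symbols only there. The bone compartment and Lats2 tables hold them as 2010107E04Rik and 1810043H04Rik, which the pattern does not take.

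The wildtype comparison had 3 libraries of metaphyseal ECs (mpECs) and 3 of ECs sorted from the marrow cavity of the diaphysis (bmECs), all of them from Cdh5-mT/nG mice, in which ECs carry a membrane red and a nuclear green reporter. The Yap1/Taz comparison had 3 libraries of sorted bone ECs from Yap1flx/flx; Wwtr1flx/flx mice with Cdh5CreERT2 and 3 without it, at postnatal day 21, where Wwtr1 is the gene of Taz. The Lats2 comparison had 2 libraries from Lats2flx/flx mice with Cdh5CreERT2 and 2 without. Cdh5CreERT2 is a Cre recombinase that tamoxifen activates in ECs throughout the body, so it is not limited to the ECs of 1 bone compartment. Pups were given tamoxifen after birth, littermates without Cre served as controls, and the floxed alleles were carried by mutants and controls alike.

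Oxidative phosphorylation is carried out by 5 complexes of the inner mitochondrial membrane. Complexes I and II take electrons from NADH and succinate, complexes III and IV pass them to oxygen while protons are pumped, and complex V, the ATP synthase, uses the proton gradient to make ATP. Most subunits are encoded in the nucleus, a small set of core subunits of complexes I, III, IV and V is encoded in mitochondrial DNA and transcribed there as long joint transcripts, and complex II is nuclear-encoded throughout. ECs are known for making much of their ATP by glycolysis even where oxygen is present.

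The library sizes recovered from the steps in the FPKM values lay between about 3.77e+06 and 1.23e+07 fragments, and libraries of 1 group differed by more than counting noise. Recovered fragments summed over genes exceeded the recovered size in every library (Lats2 mutant replicate 2: 6.91e+06 against 4.98e+06), so both are approximate. In the Yap1/Taz files the check of the targeted genes went against the labels. Yap1 stood at 1.07, 1.62 and 0.995 FPKM in controls and at 1.43, 1.03 and 0.989 FPKM in the other group (log2 fold change -0.04, adjusted p = 0.934). Wwtr1 was higher, at 10.01, 9.88 and 10.34 against 15.3, 19.6 and 19.5 FPKM (difference of 0.78 log2 units, SE 0.12, adjusted p = 0.0272, limma), and these are therefore called the libraries labelled Yap1/Taz mutant. The study itself reports lower Yap1 and Wwtr1 transcripts in freshly isolated mutant bone ECs by quantitative PCR, and weaker Yap1 staining. From gene-level FPKM an exchange of the labels cannot be told apart from a deletion that leaves the counted parts of both genes. Whether either would give a higher Wwtr1 beside an unchanged Yap1 was not tested. An exchange would turn every sign of this comparison. Lats2 stood at 23.4 and 24.03 FPKM in its controls and at 19.2 in both mutant libraries (log2 fold change -0.29, SE 0.11, adjusted p = 0.125), so that the mutant libraries were lower but the gene did not pass the test. The 7 endothelial markers summed to between 419 and 1464 FPKM over all 16 libraries, and 4 muscle markers, which could bring in muscle forms of the subunits, summed to at most 1.62 FPKM. Markers of blood cells were present in all groups, and marker lists that moved with a comparison are given beside its results. In these bulk samples, fewer cells of a type and less RNA per cell cannot be told apart.

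The promoters of 4 nuclear subunits are shown, picked by the comparison in which they passed the test. Ndufc2 and Sdha passed as higher in bmECs and not in Lats2 mutants, and Ndufb3 and Ndufc1 passed as higher in Lats2 mutants and not in bmECs. A difference between the comparisons was not tested for these genes. They are the pairs with the lowest adjusted p among such genes with a RefSeq window near the annotated gene start, which Sdhc lacked. Each is the 250 bases before the RefSeq transcript start (build GRCm38.p6), written 5′ to 3′ on the gene's strand, and capitals mark matches on either strand to the letters searched, so that a CCAAT box on the other strand is read backwards.
Ndufc2, chr7:97399753-97400002, plus strand: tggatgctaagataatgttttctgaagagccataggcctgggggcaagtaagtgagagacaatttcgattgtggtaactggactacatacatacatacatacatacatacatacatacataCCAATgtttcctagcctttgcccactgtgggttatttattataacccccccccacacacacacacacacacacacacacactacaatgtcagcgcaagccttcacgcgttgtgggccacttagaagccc
Sdha, chr13:74350241-74350490, minus strand: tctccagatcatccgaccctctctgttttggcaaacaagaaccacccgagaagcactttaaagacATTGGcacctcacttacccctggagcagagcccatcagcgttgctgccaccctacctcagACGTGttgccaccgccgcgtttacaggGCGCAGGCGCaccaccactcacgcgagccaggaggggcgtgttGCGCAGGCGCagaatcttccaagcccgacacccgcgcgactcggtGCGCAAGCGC
Ndufb3, chr1:58586147-58586396, plus strand: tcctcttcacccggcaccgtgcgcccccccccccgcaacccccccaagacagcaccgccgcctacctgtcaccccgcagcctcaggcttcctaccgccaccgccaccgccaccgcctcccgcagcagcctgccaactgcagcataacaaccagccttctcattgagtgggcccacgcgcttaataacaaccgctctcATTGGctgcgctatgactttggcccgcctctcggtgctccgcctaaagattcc
Ndufc1, chr3:51408956-51409205, minus strand: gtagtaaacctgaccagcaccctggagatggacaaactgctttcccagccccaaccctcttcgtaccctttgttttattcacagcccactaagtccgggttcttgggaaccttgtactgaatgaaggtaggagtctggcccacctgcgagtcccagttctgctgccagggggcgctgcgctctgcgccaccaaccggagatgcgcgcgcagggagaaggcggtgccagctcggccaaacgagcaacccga

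The letters searched were those of NRF1, a factor known to bind respiratory gene promoters, whose consensus of 10 letters is in capitals in the Sdha window. The ETS family, to which the respiratory gene regulator GABP belongs, was searched as CCGGAAG. HIF was searched as ACGTG and the CCAAT box by the letters of its name. Sp1 was searched as GGGCGG. TEAD, the DNA-binding partner of Yap1 and Taz, was searched as GGAATG. None of these strings lies inside another, and matches were counted separately also where they overlapped. The Sdha promoter held the NRF1 letters 3 times, CCAAT once and the HIF letters once, the Ndufc2 and Ndufb3 promoters held CCAAT once each, and the Ndufc1 promoter held none of the 6 strings. RefSeq windows were at hand for 65 of the 80 nuclear subunits. The NRF1 letters were in 18.5% of these (12), against 8.81% of the 8572 genes with a window tested in the Lats2 comparison and 3.86% of all 27025 promoters. CCAAT was in 43.1%, against 36.4% and 34.3%, and the ETS letters were in 16.9%, against 14.7% and 7.11%. The Sp1 letters were in 32.3%, against 60.4% of the tested genes and 33.0% of all promoters. The HIF letters were in 20% against 22.3% of the tested genes and 16.5% of all promoters, and the TEAD letters were in 10.8% against 10.3% and 12.6%. Of the subunits with a window, 37 passed as higher in Lats2 mutants and 25 were tested there and did not pass. The NRF1 letters were in 18.9% and 20% of these sets, CCAAT in 45.9% and 36%, and the ETS letters in 24.3% (9) and 8% (2). The TEAD letters were in 8.11% (3) and 16% (4).

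In each table the median level of the mitochondrially encoded mRNAs lay above that of the nuclear subunits. Over all libraries it was 2112 FPKM against 107 in the bone compartment table and 887 against 62.96 in the Lats2 table. In the Yap1/Taz files it was 362 against 49.96, but mt-Nd4, mt-Nd5 and mt-Nd6, at means of 38.2, 35.0 and 2.38 FPKM, lay below that nuclear median. The highest nuclear subunit of each complex in the bone compartment table was Ndufa8 at 363 FPKM for complex I, Sdhd at 171 for complex II, Uqcrc1 at 356 for complex III, Cox6b1 at 557 for complex IV and Atp5c1 at 202 for complex V. The median level per complex ran from 82.9 FPKM for complex I to 221 for complex III and 203 for complex IV, with 115 for complex II and 107 for complex V. mt-Atp6, the a subunit of ATP synthase, was the highest of all in this table at 7805 FPKM. mt-Nd4l was listed at or near 0 in all 3 tables and passed in none.

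The forms of each subunit that are known from most tissues made up nearly all of the pool. Cox4i1 held 99.6% of the Cox4i1 and Cox4i2 level in mpECs and 99.9% in bmECs, and Cox6a1, Cox6b1, Cox7a2 and Cox8a each held over 99% of theirs in both groups. The muscle forms Cox6a2 and Cox7a1 stood at 2.64 ± 1.56 and 1.32 ± 0.578 FPKM in mpECs and at 2.71 ± 0.85 and 1.64 ± 0.47 FPKM in bmECs (SD, n = 3 each). In the Yap1/Taz controls Cox7a1 held 1.27%, Cox4i2 1.67%, Cox6b2 1.95% and Cox6a2 2.24% of their families, Cox8b was listed at 0, and in the Lats2 controls Cox6b2 held 0.378% and Cox4i2 0.179%.

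The first comparison asks whether ECs of the marrow cavity differ from metaphyseal ECs in their respiratory chain mRNAs. Nuclear subunits were split gene by gene: of the 77 in the set, Ndufc2, Ndufv1, Sdha, Sdhc and Atp5g3 rose in bmECs and none fell. Atp5mpl, listed here under its older symbol 2010107E04Rik and so outside the set, did fall. It stood at 251 ± 16.5 FPKM in mpECs and 202 ± 16.8 in bmECs (SD, n = 3, log2 fold change -0.31, adjusted p = 0.0487, limma). Among mitochondrially encoded subunits, 5 fell and none rose, and all 12 were lower on average in bmECs, with a median log2 fold change of -0.32 (range -0.47 to -0.04). Over all 101 genes 6 were higher and 6 lower (5.94% each; Ndufa4l2 among the lower passed the limit on the mean only through mpECs), while over all 11422 genes with enough signal 13% were higher and 10.5% lower. Both shares were thus below the background with the values as deposited, and the median over the genes (-0.02) was near that of all genes (-0.00). Quantile normalization changed this, with 13 of the 77 nuclear subunits lower. The calls are from limma on log2(FPKM + 1) at an adjusted p under 0.05, which understates the change of genes near 1 FPKM, and they measure the spread between these 3 libraries a group.

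**Figure D1:**
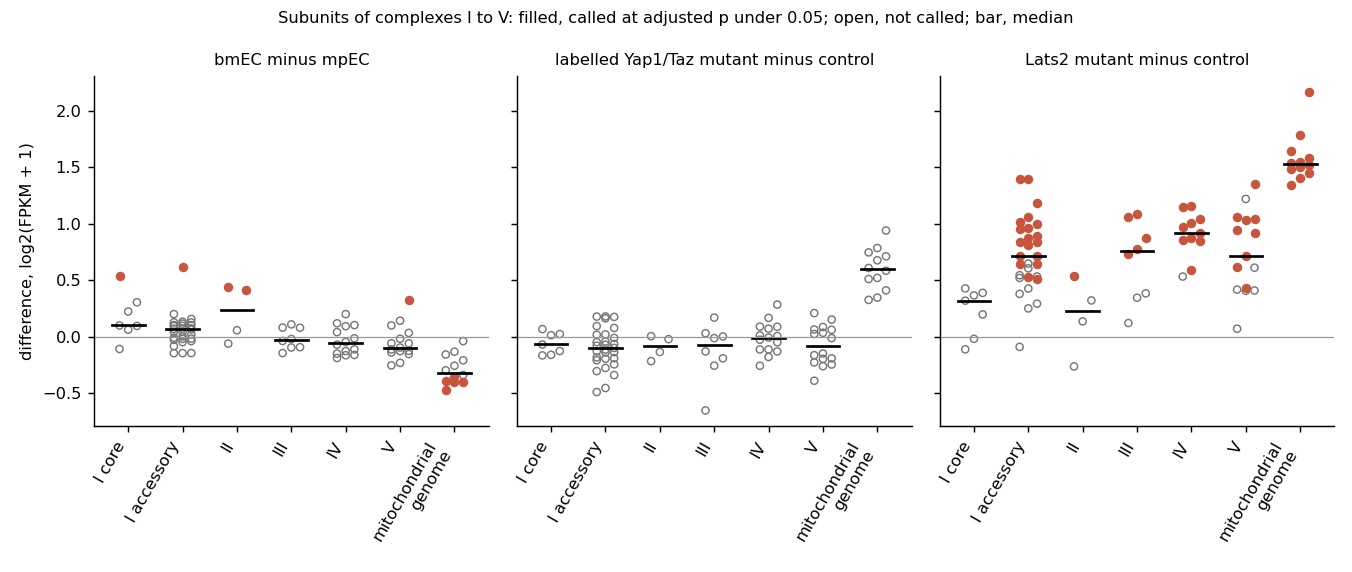
Each point is 1 gene, and the vertical axis gives the log2 fold change on the log2(FPKM + 1) scale in the 3 comparisons, by complex and class on the horizontal axis. Filled points passed the test at an adjusted p under 0.05, open points did not, and bars are medians. In Lats2 mutants the mitochondrially encoded genes lie between 1.34 and 2.17, and in bmECs all 12 lie below 0.

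Complex I took 2 of the 5 nuclear calls. Ndufc2, an accessory subunit of its membrane arm, stood at 269.8, 289.8 and 276 FPKM in the 3 mpEC libraries and at 434, 477 and 374 FPKM in the 3 bmEC libraries (difference of 0.61 log2 units, SE 0.10, adjusted p = 0.00435). Ndufv1, the core subunit that binds NADH, stood at 61.4, 52.96 and 48.1 against 86.8, 78.6 and 71.6 FPKM (difference of 0.54 log2 units, SE 0.11, adjusted p = 0.0116). For both genes every bmEC library lay above every mpEC library, as for 8 of the 77 nuclear subunits and 22.1% of all genes. Of the 7 nuclear core subunits of complex I, 6 had a positive log2 fold change and only Ndufv1 passed the test, with a median of 0.10. The core subunit Ndufs3, chosen after its values were seen, stood at 42.7, 42.7 and 41.8 against 58.8, 53.3 and 46.4 FPKM and did not pass (difference of 0.30 log2 units, SE 0.10, adjusted p = 0.0589). The 29 accessory subunits had a median of 0.06, and Ndufb4 had the smallest change of the set, with 65.2 ± 5.77 FPKM in mpECs and 65.7 ± 10.7 in bmECs (SD, n = 3).

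Complex II, succinate dehydrogenase, was split within itself. Sdha, the flavoprotein that oxidises succinate, stood at 97.4, 90.7 and 83.3 FPKM in mpECs and 122, 128 and 118 in bmECs (difference of 0.44 log2 units, SE 0.08, adjusted p = 0.00792). Sdhc, a membrane anchor, stood at 35.1, 36.7 and 35.8 against 50.4, 45.2 and 48.6 FPKM (difference of 0.41 log2 units, SE 0.08, adjusted p = 0.00698). Neither gene had overlapping groups. The iron-sulfur subunit Sdhb (-0.06, adjusted p = 0.681) and the other membrane anchor Sdhd (0.06, adjusted p = 0.718) did not pass, and their libraries overlapped between the groups.

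The c ring of ATP synthase is made from 3 genes that encode the same mature protein with different import sequences. Atp5g3 rose, from 95.4, 92.3 and 97.7 FPKM in mpECs to 127, 122 and 109.6 FPKM in bmECs (difference of 0.32 log2 units, SE 0.08, adjusted p = 0.0254). Atp5g2 stood at 95.1, 82.7 and 90.1 against 73.6, 79.4 and 71.1 FPKM, with every bmEC library below every mpEC library, and did not pass (difference of -0.25 log2 units, SE 0.09, adjusted p = 0.0676). Atp5g3 held between 43.5% and 46.6% of the summed level of the 3 genes in mpECs and between 54.2% and 56.4% in bmECs, so the shares did not overlap. Atp5g2 held 41.7% to 43.4% in mpECs and 32.8% to 35.5% in bmECs, and Atp5g1 held the smallest share, at 12.2% ± 0.798 and 10.6% ± 0.346 (SD, n = 3). Atp5g3 passed in 10 of 16 alternative settings, with adjusted p up to 0.0956.

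**Figure D2:**
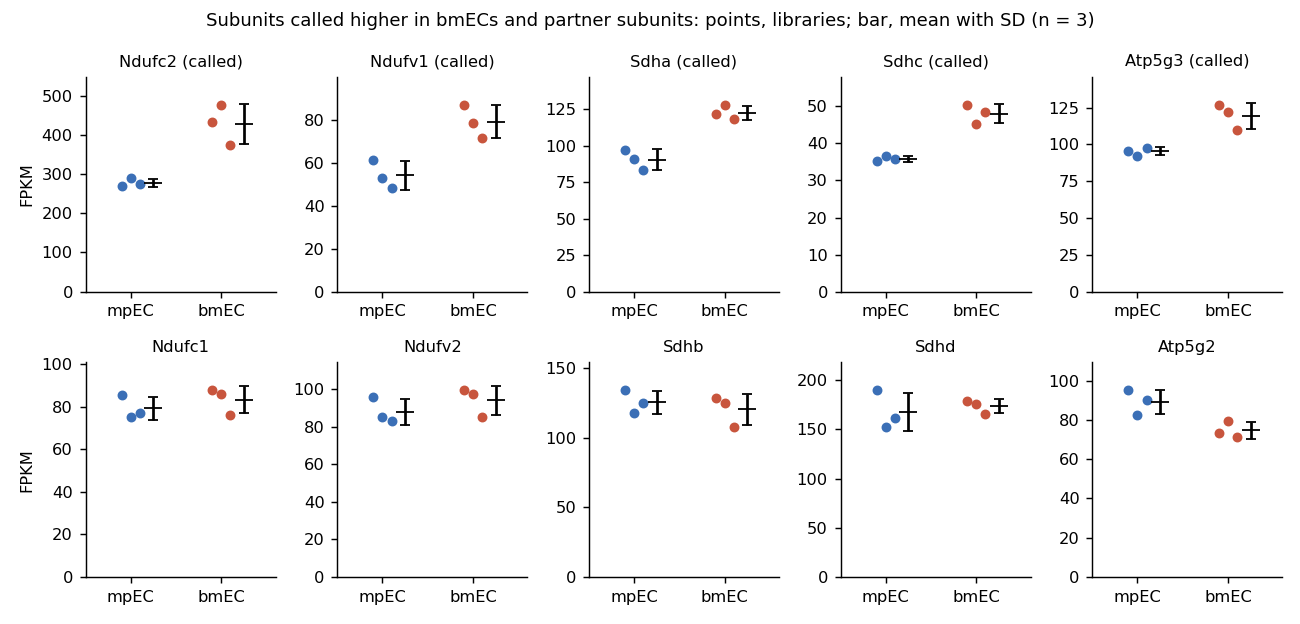
FPKM of 10 nuclear subunits in the 3 mpEC and 3 bmEC libraries, each point 1 library, with the mean and SD as a bar beside the points and axes that start at 0. Genes marked as called passed the test, and Sdha and Sdhc are apart between the groups while Sdhb and Sdhd overlap.

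Complexes III and IV had no call among their 8 and 14 nuclear subunits tested, with medians of -0.03 and -0.06. The 15 subunits of complex V in the set had a median of -0.10, and Atp5g3 was the only one of them called. Outside the complexes, Atp5s, which is listed with the ATP synthase genes but is not a subunit of the enzyme, rose from 9.97, 10.5 and 8.46 to 13.7, 15.3 and 13.96 FPKM (difference of 0.53 log2 units, SE 0.10, adjusted p = 0.00882). Ndufa4l2, a paralog of the complex IV subunit Ndufa4 that is known to be induced by HIF1, fell from 2.95, 2.61 and 1.61 to 0.380, 0.881 and 0.797 FPKM (difference of -0.999 log2 units, SE 0.20, adjusted p = 0.00973). It passed the limit on the mean through its level in mpECs, and the lowest bmEC library rested on about 3 recovered fragments. Ndufa4 itself, at 468 ± 17.1 and 429 ± 39.3 FPKM (SD, n = 3), did not pass (adjusted p = 0.37). None of the 7 assembly factors was called.

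The mitochondrially encoded genes are spread over 4 of the complexes, and those that fell belong to 3 of them. mt-Nd6, the complex I gene on the light strand of mitochondrial DNA, stood at 189, 199 and 236 FPKM in mpECs and 159, 155 and 134 in bmECs (difference of -0.47 log2 units, SE 0.11, adjusted p = 0.0189). mt-Cytb, cytochrome b of complex III, stood at 5536, 5857 and 6452 against 4533, 4505 and 4536 FPKM (difference of -0.39 log2 units, SE 0.11, adjusted p = 0.0363). mt-Nd1, mt-Co3 and mt-Nd5 fell by 0.40, 0.40 and 0.35 on the log2 scale (adjusted p = 0.033, 0.0466 and 0.0219). For all 5 genes every bmEC library lay below every mpEC library, and the groups were apart in this direction for 8 of the 12 genes, where 19.2% of all genes were. mt-Atp8 and mt-Atp6 of ATP synthase did not pass (log2 fold change -0.16, adjusted p = 0.388, and -0.21, adjusted p = 0.255), nor did mt-Nd3 (-0.13, adjusted p = 0.462) or mt-Nd2 (-0.04, adjusted p = 0.819). The ribosomal RNAs of the same genome, mt-Rnr1 and mt-Rnr2, had log2 fold changes of 0.07 and 0.28 and did not pass (adjusted p = 0.72 and 0.102). mRNAs of the mitochondrial genome made up 7.48% ± 0.966 of the summed FPKM in mpECs and 5.50% ± 0.261 in bmECs, and nuclear subunits 2.56% ± 0.0285 and 2.35% ± 0.0409 (SD, n = 3).

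The mitochondrial calls were sensitive to single libraries. Without replicate 3 of mpECs or replicate 3 of bmECs none of the 12 passed, and 1 gene of the whole set was lower in each case. Without mpEC replicate 2 or bmEC replicate 1, 2 genes of the set were lower, and without bmEC replicate 2, 3 were, where all libraries together gave 6. Ndufc2, Ndufv1, Sdha, Sdhc and Atp5s passed in all 16 alternative settings, with adjusted p of at most 0.0453. Under quantile normalization 6 genes were higher and 23 lower, where 12.9% of all genes were higher and 2879 of 11422 were called in either direction. Lower there were 13 of the 77 nuclear subunits and 9 of the 12 mitochondrially encoded genes. The absence of lower nuclear subunits thus depended on the normalization. Under a stricter rule (adjusted p under 0.01 and more than 0.5 log2 units) 2 were higher and 1 lower, against 6.51% and 5.17% of all genes. Marker levels moved with the groups too: the 6 osteoblast markers summed to 108 to 521 FPKM in mpECs and 41.1 to 52.5 in bmECs, with 2 of the 4 tested called lower. The 5 osteoclast markers summed to 42.3 to 77.1 and 23.9 to 27.9 FPKM, with all 3 tested called lower, and the 3 adipocyte markers to 4.99 to 10.2 and 58.4 to 156, with both of those tested called higher. Of the 5 macrophage and monocyte markers (1042 to 1905 against 681 to 954 FPKM) Lyz2 was called lower, and of the 5 genes of dissociation stress (322 to 581 against 424 to 1696 FPKM) Jun was called higher. Among the 4 stromal markers (52.7 to 72.9 against 33.1 to 61.5 FPKM) Lepr was called higher and Kitl lower (log2 fold change 1.85 and -1.61, adjusted p = 5.07e-05 and 0.00961, limma). The 6 neutrophil markers summed to 11372 to 27234 and 9251 to 13586 FPKM and the 6 erythroid markers to 25672 to 48096 and 38809 to 55610 FPKM, with none called in either list, beside 968 to 1213 and 1064 to 1072 for the 7 endothelial markers, of which 2 were called higher and 3 lower. The part of these shifts in the results was not tested.

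**Figure D3:**
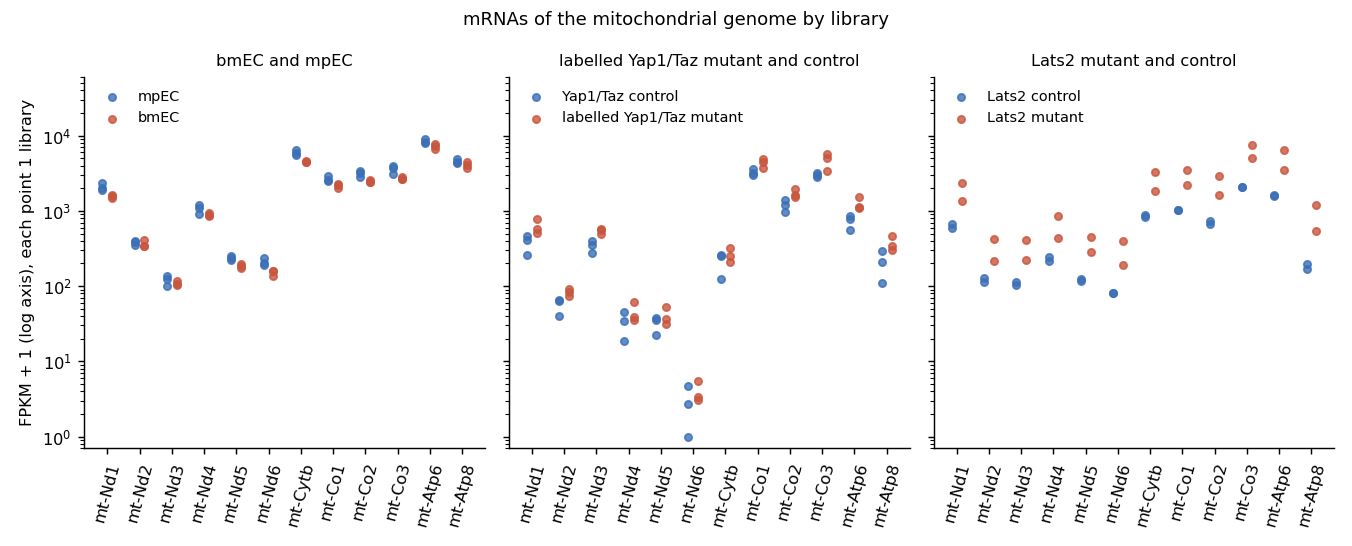
FPKM + 1 on a log axis for the 12 mitochondrially encoded mRNAs in every library of the 3 comparisons, each point 1 library and each panel 1 separately normalised table. The 2 Lats2 mutant libraries lie above both controls for all 12 genes, while the means of all 12 are lower in bmECs.

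In the second comparison, Lats2 mutants against controls, the shift reached most of the set. Of 97 genes tested 59 rose and 2 fell, which is 60.8% and 2.06%, where over all 12453 genes with enough signal 11.8% rose and 9.98% fell. The median log2 fold change was 0.73, against -0.00 for all genes, and 91 of 97 genes had a positive sign. All 12 mitochondrially encoded genes rose, with a median of 1.53 (range 1.34 to 2.17), and so did 44 of 74 nuclear subunits, with a median of 0.68. Each group held only 2 libraries.

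The mitochondrially encoded genes moved in both mutant libraries and to different extents. mt-Atp8, which shares bases with mt-Atp6 on the same strand, stood at 193 and 166 FPKM in controls and at 545 and 1196 in mutants (difference of 2.17 log2 units, SE 0.37, adjusted p = 0.0199). mt-Nd6 stood at 79.4 and 79.7 against 190.4 and 402 FPKM (difference of 1.79 log2 units, SE 0.35, adjusted p = 0.0257). mt-Co1, the catalytic subunit of complex IV, stood at 1022 and 1027 against 2221 and 3529 FPKM (difference of 1.45 log2 units, SE 0.25, adjusted p = 0.0208). In all 12 genes mutant replicate 1 lay above both controls and mutant replicate 2 lay highest. mt-Co3 stood at 2104 and 2082 against 5018 and 7437 FPKM (difference of 1.55 log2 units, SE 0.25, adjusted p = 0.0168). mt-Nd2 had the smallest change, at 112 and 126 against 215 and 421 FPKM (difference of 1.34 log2 units, SE 0.32, adjusted p = 0.0414). The remaining mitochondrial genes lay between these in log2 fold change: mt-Co2 at 1.64, mt-Nd5 at 1.58, mt-Atp6 at 1.54, mt-Cytb at 1.51, mt-Nd1 at 1.504, mt-Nd3 at 1.48 and mt-Nd4 at 1.40. The mitochondrial ribosomal RNAs mt-Rnr1 and mt-Rnr2 rose as well (1.91 and 1.70, adjusted p = 0.0375 and 0.0269). mRNAs of the mitochondrial genome took 2.27% of the summed FPKM in both controls and 4.56% and 6.65% in mutants, and nuclear subunits took 1.56% and 1.52% against 1.93% and 2.04%.

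Among the nuclear subunits of complex I the calls fell on the accessory subunits, 19 of 29, with a median of 0.71, while none of the 7 core subunits was called, with a median of 0.32 and a range of -0.11 to 0.43. Ndufb4, an accessory subunit of the membrane arm, had the largest change of the nuclear subunits, at 14.6 and 13.4 against 30.1 and 48.9 FPKM (difference of 1.40 log2 units, SE 0.24, adjusted p = 0.0197). The accessory subunits whose promoters are shown above, Ndufb3 and Ndufc1, stood at 37.1 and 40.98 against 71.2 and 83.5 FPKM (difference of 0.96 log2 units, SE 0.14, adjusted p = 0.0134) and at 17.1 and 19.98 against 36.3 and 43.03 FPKM (difference of 1.05 log2 units, SE 0.15, adjusted p = 0.0134). In all 3 genes both mutant libraries lay above both controls, as for 69 of the 74 nuclear subunits and 34% of all genes. Ndufc2 and Ndufv1, the complex I genes that rose in bmECs, did not pass here: Ndufc2 stood at 200.2 and 155 against 154 and 177 FPKM (-0.09, adjusted p = 0.728), and Ndufv1 at 43.5 and 48.5 against 53.8 and 51.8 (0.20, adjusted p = 0.281). Ndufs3 had the smallest change of the set (-0.02).

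Complex II was again uneven. Sdhb rose, from 57.6 and 56.1 to 80.2 and 85.8 FPKM (difference of 0.54 log2 units, SE 0.11, adjusted p = 0.0299). Sdha stood at 103 and 104 in controls and 95.1 and 77.96 in mutants, both mutant libraries below both controls (as for 34.2% of all genes), and did not pass (difference of -0.26 log2 units, SE 0.14, adjusted p = 0.227). Sdhc and Sdhd did not pass either (log2 fold change 0.13, adjusted p = 0.533, and 0.32, adjusted p = 0.106). In complex III 5 of 8 nuclear subunits rose, with a median of 0.75. Its large core subunit Uqcrc1, the highest of these nuclear subunits in controls, was at 255 ± 13.3 FPKM in controls and 277 ± 5.58 in mutants (SD, n = 2). It did not pass (0.12, adjusted p = 0.506).

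Complex IV was the complex with the largest share of calls, 10 of 11 subunits, with a median of 0.91. The common forms rose in every family: Cox4i1 by 0.59, Cox6a1 by 0.85, Cox6b1 by 0.87, Cox7a2 by 0.91 and Cox8a by 0.97 on the log2 scale (adjusted p from 0.0239 to 0.0421). Cox8a, a small nuclear subunit, stood at 158 and 159 FPKM in controls and 265 and 366 in mutants. Ndufa4, now counted as a complex IV subunit, was the one that did not pass (difference of 0.53 log2 units, SE 0.16, adjusted p = 0.0744). Cox7a2l, a factor that joins complexes III and IV into supercomplexes, rose by 0.49 (adjusted p = 0.0381).

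In complex V 9 of the 15 subunits in the set rose, with a median of 0.72. Atp5mpl, listed as 2010107E04Rik and outside the set, rose as well (1.12, adjusted p = 0.03, limma). Of the F1 head, Atp5a1 stood at 237 ± 0.920 against 248.7 ± 4.43 FPKM (SD, n = 2, log2 fold change 0.07, adjusted p = 0.689) and did not pass. Neither did the catalytic subunit Atp5b, at 260.4 ± 4.34 against 346 ± 8.54 FPKM (0.41, adjusted p = 0.0646). Both were named after their values were seen. Atp5g1 and Atp5g2 rose by 1.03 and 1.06 (adjusted p = 0.0163 and 0.0345), and Atp5g3 did not pass (0.40, adjusted p = 0.0897). Atp5g3 held 73.8% and 78.8% of the summed c subunit level in the controls and 65.1% and 68.3% in the mutants, and Atp5g1 held 7.46% and 7.62% against 10.6% and 10.9%. Both shares were apart between the groups, in a comparison where the libraries were apart for 34% of all genes in the higher and 34.2% in the lower direction.

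**Figure D4:**
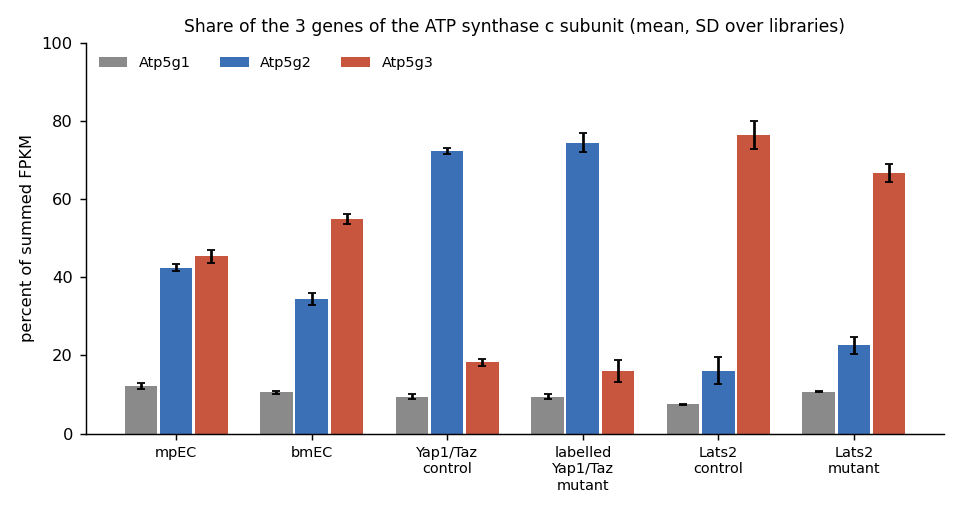
Share of the summed FPKM of Atp5g1, Atp5g2 and Atp5g3 held by each gene, in percent on an axis that starts at 0, with bars at the group means and error bars giving the SD over the 3 (Lats2: 2) libraries of each group. Atp5g3 holds 45.3% on average in mpECs and 55.0% in bmECs, and 76.3% in Lats2 controls and 66.7% in Lats2 mutants.

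The 2 genes that fell are not subunits. Ndufaf1, an assembly factor that brings together an early part of complex I, stood at 10.8 and 10.9 FPKM in controls and 7.06 and 6.02 in mutants (difference of -0.66 log2 units, SE 0.14, adjusted p = 0.0317). Atp5s stood at 10.96 and 9.06 against 6.07 and 5.68 FPKM (difference of -0.67 log2 units, SE 0.15, adjusted p = 0.0356). Among the other assembly factors Ndufaf2 and Ndufaf5 rose (1.02 and 0.74, adjusted p = 0.0267 and 0.0408), and 65.7% of the exon bases of Ndufaf2 also belong to a gene on the other strand.

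The change in Lats2 mutants varied with transcript length. Over the 74 nuclear subunits the Spearman correlation of length with log2 fold change was -0.59, and over 10814 other genes it was -0.17; these are across genes, which share the 4 libraries. Subunit transcripts were short, with a median of 863 nucleotides against 2938 for other genes, and 58.1% of them (43) but 6.39% of other genes had up to 1000 nucleotides. Other genes of up to 600 nucleotides had a median log2 fold change of 0.48 (0.26 without ribosomal protein genes) and those of 600 to 1000 of 0.46 (0.40), against -0.06 for 2000 to 3000 nucleotides. The nuclear subunits had medians of 0.97 (17 genes) and 0.86 (26 genes) in those shortest bins, and the longer bins held at most 13 genes each. Subunits called higher had a median length of 693 nucleotides and those not called of 1427.5. The core subunits of complex I and those of complex II were longer (median 1623 and 2065.5) than the accessory subunits of complex I (763) and the subunits of complex IV (645) and 0 of 7, 1 of 4, 19 of 29 and 10 of 11 of these were called. The same correlation over nuclear subunits was 0.15 in bmECs against mpECs.

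**Figure D5:**
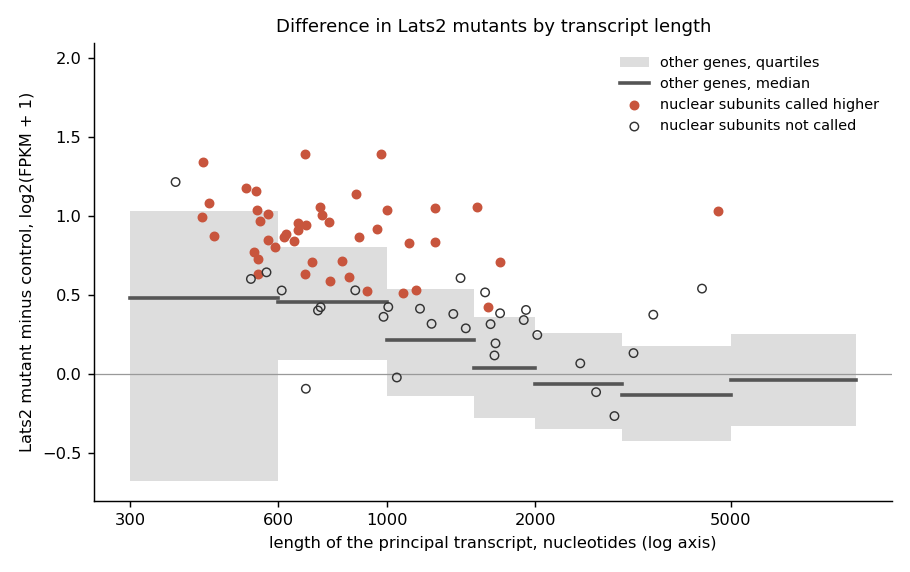
Log2 fold change in Lats2 mutants on the log2(FPKM + 1) scale against the length of the principal transcript in nucleotides on a log axis. Points are the 74 nuclear subunits, filled where called higher, and grey boxes and bars are the quartiles and medians of other genes in 7 length bins. Short subunits lie highest, and the medians of other genes of up to 1000 nucleotides lie above 0, with a wide spread in the shortest bin (lower quartile -0.67).

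With the trend in exonic length and GC content over all genes removed, 45 genes were higher and 2 lower, and 44 of the 59 calls were shared. Of the 74 nuclear subunits 32 were higher (median 0.49), where 11.2% of all genes were. With the length of the principal transcript in place of the exonic length, an alternative chosen after the data were seen, 27 genes were higher and 3 lower. The median was 0.30, 26 of the 59 calls were shared, and 12.4% of all genes were higher. All 12 mitochondrially encoded genes passed in both (medians 1.21 and 1.07); with the principal length 15 of 74 nuclear subunits were higher (median 0.22), and Ndufc2 was lower at -0.70 (adjusted p = 0.0158). Without Lats2 control replicate 1 or 2 no gene of the set passed by limma (52 and 47 of 97 at an unadjusted p under 0.05), no other gene did either, and 93 and 91 genes kept a positive sign. Without mutant replicate 2 the medians were 1.11 for mitochondrially encoded genes and 0.51 for nuclear subunits. Without mutant replicate 1 they were 1.93 and 0.87. Without the limit on the mean 13 genes of the set were higher (all genes: 3.63%), 1 of the 12 mitochondrially encoded genes among them. Without the mean-variance trend 35 were (all genes: 9.38%). No gene of the set met a stricter rule, an adjusted p under 0.01 with a change of more than 0.5 log2 units, which 0.851% of all genes met as higher and 1.21% as lower.

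Other markers moved with the Lats2 groups. The 6 erythroid markers summed to 2093 to 3242 FPKM in controls and 211 to 1256 in mutants, with 1 called lower, the 5 macrophage and monocyte markers to 413 to 506 against 59.2 to 271, with none called, and the 4 megakaryocyte markers to 29.1 to 106 against 9.45 to 12.1, with Pf4 called lower. The 6 neutrophil markers summed to 1776 to 2668 against 662 to 788, with 4 called lower, and the 4 B cell markers to 69.3 to 80.7 against 14.6 to 21.8, with all 3 tested called lower. The 4 stromal markers summed to 44.8 to 57.6 against 89.5 to 94.9, with 2 called higher, and the 3 adipocyte markers to 25.1 to 27.5 against 4.70 to 4.79, with Cfd called lower and Plin1 at 0. The 7 endothelial markers summed to 1360 to 1464 against 1319 to 1339, with Tek and Kdr called lower (-1.35 and -0.95) and Pecam1 higher (0.85). Of the 5 genes of dissociation stress Atf3 was called higher and Hspa1a lower. Among the 5 osteoclast markers (28.9 to 34.3 FPKM in controls against 33.1 to 57.6 in mutants) Ctsk was called higher (log2 fold change 1.31, adjusted p = 0.0176, limma). The noncoding transcript Gm23935 rose from 6093 and 7629 FPKM to 15846 and 26667 (log2 fold change 1.59, adjusted p = 0.0299). Mutant replicate 2 was the higher library in each class, with a median log2 ratio to the control mean of 1.93 against 1.11 in replicate 1 for mitochondrially encoded genes and 0.87 against 0.51 for nuclear subunits. The part of these shifts in the results was not tested.

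In the third comparison no gene of the set passed between the libraries labelled Yap1/Taz mutant, in which Wwtr1 was higher and Yap1 did not pass, and their controls. By limma 0 of the 101 were called, where over all 11320 genes with enough signal 0.883% were higher and 0.424% lower (1.31% in all), and 14 had an unadjusted p under 0.05 (17.9% of all genes did). None met the stricter rule, which 0% of all genes met as higher and 0.00883% as lower. On the recovered fragments limma-voom called 3, mt-Atp6, mt-Co3 and mt-Nd3, all higher, where it called 2.47% of all genes higher. The signs again split by genome: all 12 mitochondrially encoded genes were positive, with a median of 0.59 (range 0.33 to 0.94), and the 79 nuclear subunits had a median of -0.07, with 50 negative. Without control replicate 1 the mitochondrial median was 0.36, and without any other library between 0.45 and 0.70. Were the labels exchanged, the medians would read -0.59 and 0.07.

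mt-Nd3, a membrane subunit of complex I, stood at 271, 356 and 393 FPKM in controls and 573, 553 and 489 in the libraries labelled Yap1/Taz mutant (difference of 0.68 log2 units, SE 0.15, adjusted p = 0.0609). mt-Atp6 stood at 558, 773 and 854 against 1538, 1126 and 1088 FPKM (difference of 0.78 log2 units, SE 0.19, adjusted p = 0.0708). mt-Co3 stood at 2993, 2833 and 3199 against 5676, 5007 and 3375 FPKM (difference of 0.61 log2 units, SE 0.20, adjusted p = 0.146). These groups did not overlap, as for 8 of the 12 mitochondrial genes, where 12.3% of all genes were apart in this direction. With only genes of a mean of at least 5 FPKM tested, mt-Nd3 passed (adjusted p = 0.0465). The order of the mitochondrial genes in these files differed from the other tables: mt-Co1 was highest, at 3264 ± 302 FPKM in controls, mt-Cytb was at 209.7 ± 74.98 and mt-Nd6 at 1.80 ± 1.87 (SD, n = 3), and control replicate 1 was lowest for most of them, with mt-Nd6 listed at 0. mRNAs of the mitochondrial genome held 3.19% ± 0.401 of the summed FPKM in controls and 4.58% ± 0.936 in the libraries labelled mutant.

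The nuclear subunits with the lowest p in these files were lower in the libraries labelled Yap1/Taz mutant, and Uqcrq and Ndufc1 among them were picked after their values were seen. Uqcrq, a small subunit of complex III, stood at 14.8, 13.6 and 11.9 FPKM in controls and 6.43, 8.22 and 10.2 in the libraries labelled mutant (difference of -0.65 log2 units, SE 0.15, adjusted p = 0.068). Atp5g3 stood at 32.5, 38.6 and 34.00 against 28.6, 26.4 and 24.5 FPKM (difference of -0.39 log2 units, SE 0.10, adjusted p = 0.0944), and Ndufc1 at 15.3, 10.7 and 12.9 against 8.34, 9.53 and 8.75 FPKM (difference of -0.49 log2 units, SE 0.13, adjusted p = 0.0964). In each the groups did not overlap, and none passed the test. Libraries were apart in this direction for 10 of the 79 nuclear subunits, near the 11.3% of all genes. Sdha, Sdhb, Sdhc and Sdhd had log2 fold changes of -0.22, -0.02, -0.14 and 0.00, and the medians of the 5 complexes ran from -0.09 to -0.01. Of the c subunit genes Atp5g2 held most of the level, 72.3% ± 0.806 in controls and 74.5% ± 2.37 in the libraries labelled mutant (SD, n = 3). The 6 osteoblast markers summed to 27.6 to 34.6 FPKM in controls and 8.58 to 17.4 in the other group, with 2 of 4 tested called lower, the 4 B cell markers to 197 to 220 and 158 to 163, and the 7 endothelial markers to 419 to 435 and 488 to 549, and the megakaryocyte marker Ppbp was called higher (1.27, adjusted p = 0.0117); their part in the signs was not tested.

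Other genes of energy metabolism, taken as lists, gave the setting in which the subunits were measured. Their counts stand beside 13% of all genes higher and 10.5% lower in bmECs, and 11.8% and 9.98% in Lats2 mutants. In bmECs, of 18 genes of the tricarboxylic acid cycle and pyruvate dehydrogenase 1 rose, the succinyl-CoA ligase subunit Suclg2, from 22.8 ± 2.12 to 36.2 ± 0.164 FPKM (SD, n = 3, log2 fold change 0.65, SE 0.09, adjusted p = 0.00155). Of 17 glycolysis genes 7 rose and 1 fell, with the lactate transporter Slc16a1 at 35.3 ± 1.18 and 111 ± 5.46 FPKM (1.63, adjusted p = 1.78e-05) and the phosphofructokinase Pfkl at 34.0 ± 3.01 and 60.2 ± 6.26 FPKM (0.80, adjusted p = 0.00128). Of 10 HIF-linked respiratory genes 3 rose and 1 fell. Pdk1, a kinase that inhibits pyruvate dehydrogenase, rose by 1.39 and the mitophagy receptor Bnip3 by 0.96 (adjusted p = 7.57e-05 and 0.00116, limma). The gene counted as lower was Ndufa4l2, which passed the limit on the mean only through mpECs. Atpif1, the inhibitor of ATP synthase, fell by 0.55 (adjusted p = 0.00579), and the mitochondrial superoxide dismutase Sod2 rose by 0.45 (adjusted p = 0.00831).

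Of 36 assembly factors and electron carriers 7 rose and 2 fell in bmECs (all genes: 13% and 10.5%), among them Uqcc2, an assembly factor of complex III, which fell by 0.39 (adjusted p = 0.0194). No gene of 12 for mitochondrial biogenesis and transcription passed, with the mitochondrial transcription factor Tfam at 6.76 ± 0.471 and 8.15 ± 0.819 FPKM (adjusted p = 0.157). Of 72 mitochondrial ribosomal protein genes 1 rose and 1 fell, of 37 proteasome genes 2 rose and 1 fell, and of 84 cytosolic ribosomal protein genes 24 fell and none rose, with a median of -0.19.

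In Lats2 mutants, where 11.8% of all genes rose and 9.98% fell, 2 of 18 tricarboxylic acid cycle genes rose, Idh3a by 0.66 and Mdh2 by 0.50 (adjusted p = 0.0185 and 0.0337). Of 17 glycolysis genes 10 rose and 2 fell, with the triosephosphate isomerase Tpi1 up by 1.92, the enolase Eno1 up by 1.40 and Slc16a1 lower at -2.52 (adjusted p = 0.0156, 0.0131 and 0.0105). Of 37 assembly factors and carriers 5 rose and 1 fell, among them cytochrome c, Cycs, from 8.34 ± 0.356 to 21.7 ± 4.14 FPKM (SD, n = 2, log2 fold change 1.27, adjusted p = 0.0125), and Uqcc2 by 1.18. Of 14 uncoupling, antioxidant and carrier genes 5 rose, with the ADP/ATP carrier Slc25a4 at 1.01 and Atpif1 at 0.86 (adjusted p = 0.0115 and 0.0135). Of 9 HIF-linked genes 3 rose and 1 fell, with a list median of 0.46. Higd1a rose by 1.09 and Fam162a by 0.93, and the one that fell was Pdk1, at -0.99 (adjusted p = 0.0349, 0.0154 and 0.0141, limma).

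None of 15 biogenesis genes passed in Lats2 mutants, with a median of -0.12. Tfam stood at 6.91 ± 0.404 and 5.82 ± 0.295 FPKM and the factor Nrf1 at 7.73 ± 0.0929 and 5.51 ± 1.10 FPKM (SD, n = 2, adjusted p = 0.318 and 0.129). Among genes of other large complexes, with 11.8% of all genes higher, 68 of 83 cytosolic ribosomal protein genes rose, with a median of 1.03, 26 of 72 mitochondrial ribosomal protein genes rose and 1 fell, with a median of 0.45, and 11 of 38 proteasome genes rose, with a median of 0.36. In the libraries labelled Yap1/Taz mutant the only call in all these lists was the mitochondrial ribosomal protein gene Mrpl14, lower at 8.70 ± 0.825 against 18.5 ± 3.11 FPKM (SD, n = 3, log2 fold change -0.995, adjusted p = 0.0228).

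Side by side, the mitochondrially encoded genes had medians of -0.32, 0.59 and 1.53 in bmECs, in the libraries labelled Yap1/Taz mutant and in Lats2 mutants, each against its own controls and with the sign of the second resting on labels that its target check went against, and the nuclear subunits had medians of 0.02, -0.07 and 0.68. The comparisons share no library and their tables were normalised separately, and a difference between these values was not tested.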

How the data were processed

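RNA was measured in 16 libraries of sorted mouse bone ECs. Per the study's methods, the authors prepared them with TruSeq Stranded Total RNA, sequenced paired ends on a MiSeq, aligned with TopHat to mm10 (GRCm38), counted with HTSeq 0.6.1 and tested counts with DESeq2. The deposited files hold FPKM per gene in 3 sets normalised separately, and the tool that made the FPKM and the strand setting are not given in the sources used here. Fragments were recovered from the steps of low FPKM values, of which 62.4% to 70.1% per library fell within 0.02 of a whole multiple of 1 fragment. Symbols for the Yap1/Taz files, which list 21603 Ensembl IDs, came from GENCODE M21 (21452 matched). A processed pseudogene or a nuclear copy of a mitochondrial gene can share reads with a subunit, so that single values are uncertain to that extent.

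Each comparison was fitted alone in R 4.3.3 with limma 3.58.1 on log2(FPKM + 1), with a mean-variance trend, for genes whose mean reached 1 FPKM. P-values were two-sided and adjusted over all genes tested by Benjamini-Hochberg, and a gene was called at an adjusted p under 0.05. Here the deposited FPKM values were tested instead, with limma-voom on the recovered fragments as an alternative. Replicates are biological by the study's methods. On simulated data made from each comparison, log2 changes of 2 were called in 100%, 100% and 75% of genes, and log2 changes of 1 in 83%, 92% and 4%, for the bone compartment, Yap1/Taz and Lats2 designs. The simulations changed 200 genes in each comparison and gave every gene the same relative spread beyond counting noise.

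Genes named with values were those called (up to 12 of the largest change a direction), the most abundant of each complex, all succinate dehydrogenase subunits, all mitochondrially encoded genes, the isoform pairs and the smallest change, and the text says where others were added. The genes, lists and tests were chosen with earlier results of these data known. Alternatives were another pseudocount, limit on the mean, scaling, trend, rule or tool, each library left out, and removal of length and GC trends. Promoters came from RefSeq (GRCm38.p6), and figures were drawn with matplotlib 3.10.9 in Python 3.11.15.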

Additional observations from a re-analysis of the deposited data

How the results depend on the processing

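Of 141 values of the main counts and medians recomputed under an alternative, 109 stayed close to the main value and 32 moved by more than 1.5 times or beyond the spread, and none changed sign as a called result. In bmECs against mpECs the count lower (6) became 3 with no limit on the mean, 23 with quantile normalization (median -0.13), 2 with the exonic length and GC trend removed, 2 with the principal transcript length and GC trend removed (which gave 14 higher) and 1 under the stricter rule (which gave 2 higher). Over all genes 12.9% were higher with quantile normalization (2879 of 11422 called in either direction) and 14.6% with the principal transcript trend removed. Leaving out 1 library gave 5 to 7 higher, 1 to 8 lower and medians of -0.08 to 0.02. In the Yap1/Taz files the count higher was 1 with a limit of 5 FPKM (all genes: 1.57%) and 3 with limma-voom (all genes: 2.47%). There, leaving out 1 library gave 0 to 0 calls in each direction and medians of -0.05 to -0.00. In Lats2 mutants the count higher (59) became 13 with no limit on the mean, 35 with no mean-variance trend, 27 with the principal transcript trend removed and 0 under the stricter rule. Over all genes the shares higher in these settings were 3.63%, 9.38%, 12.4% and 0.851%. The count lower (2) became 0 with no limit on the mean, with limma-voom and under the stricter rule. The median (0.73) became 0.53 with the exonic trend removed and 0.30 with the principal transcript trend removed. Leaving out 1 library gave 0 to 66 higher, 0 to 1 lower and medians of 0.58 to 0.92. Removal of the principal transcript trend was chosen after seeing the data, and the cause of these moves was not tested, except that fewer libraries leave fewer degrees of freedom.

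With the replicate number as a block, 7 genes were higher and 7 lower in bmECs, 0 and 0 passed in the Yap1/Taz files, and 56 were higher and 2 lower in Lats2 mutants. Libraries with the same number had correlated deviations of 0.31, 0.09 and 0.10 in the bone compartment, -0.18, -0.12 and -0.16 in the Yap1/Taz and 0.07 in the Lats2 comparison, and not every library was closest to its own number, so the numbers were not taken as pairs. Wwtr1 lost its call in 6 of 16 settings (adjusted p up to 0.18). With 2 libraries a group, 4% of simulated log2 changes of 1 were called in the Lats2 design, where 200 of 12274 genes were changed. In the data 21.8% of all genes were called, so this 4% does not give the share of such changes found there.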
